A study of Mus musculus with 12 samples.

Results

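The collagens and laminins of the mouse striatum were followed in 12 RNA-seq libraries and were chosen by gene symbol. Symbols made of Col, a type number, the letter a and a chain number were taken as collagens, and Lama, Lamb or Lamc with a chain number as laminins. The transcript list held 53 such genes among 52169 symbols, 42 collagens and 11 laminins, with 515 transcripts between them. Each gene is represented by its transcript with the highest mean level over the 12 libraries, and levels are given as CPM, counts relative to the library total after scaling of that total by the TMM method of edgeR.

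Collagens are secreted proteins whose chains wind around each other into stiff rods, and laminins are cross-shaped trimers of an alpha, a beta and a gamma chain. Together with nidogens and perlecan, type IV collagen and laminin build the basement membranes, which in the brain lie around blood vessels and under the meninges. The fibril-forming collagens (types I, II, III, V, XI, XXIV and XXVII) belong mainly to skin, bone, tendon and cartilage, and adult brain tissue outside vessels and meninges is poor in them. Some collagens span the cell membrane (types XIII, XVII, XXIII and XXV), and type XXV is made by neurons.

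All libraries came from C57BL/6J mice given 6-OHDA, a toxin of dopamine neurons, in the right medial forebrain bundle after 25 mg/kg desipramine, which spares noradrenaline neurons. After 2 weeks of recovery every mouse received L-DOPA at 10 mg/kg with 7.5 mg/kg benserazide, either as 1 injection (acute, AL) or daily for 9 days (chronic, ChL), and was killed 1 hour after the last dose. The lesioned right striatum (AL_R and ChL_R) and the unlesioned left striatum (AL_L and ChL_L) gave 3 libraries each, from striatal punches of 2 mm, and these libraries hold no group without L-DOPA and none from mice without a lesion. The series counts 12 mice for 12 libraries, whereas the study's text treats the unlesioned side as the control within each mouse, so whether a lesioned and an unlesioned library share a mouse is not settled by the labels. In the libraries, the same replicate number did go with shared deviations between the sides for both treatments, but replicate 3 of the chronic set was not singled out by its number. Members whose call between the sides changed with the number as a block are given with that value.

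Library totals ran from 87695043 to 173116525 counts over all transcripts, and 3 counts, the most that a count of 0 allows, correspond to 0.0171 to 0.0347 CPM (counting error only). The tissue label held: the 8 genes listed for medium spiny neurons summed to 1496 to 2068 CPM per library, and none of them was near 0. Library ChL_L2, replicate 2 of the chronic unlesioned group, stood apart. Its 11 choroid plexus genes summed to 495 CPM, against 9.03 to 12.0 CPM in the other chronic and 3.97 to 5.82 CPM in the acute libraries. In ChL_L2 Ttr was at 449.8 CPM, against at most 1.51 CPM in the others. Its 9 genes of leptomeningeal and perivascular fibroblasts summed to 29.3 against 9.32 to 16.5 CPM, 21.0 CPM of it from Igf2. Chronic effects of named members whose call changed without this library are therefore given both ways. The 5 genes of cortical glutamatergic neurons also varied, with 30.0, 13.5 and 12.9 CPM in AL_L and 24.4, 5.17 and 41.1 CPM in ChL_L. On the lesioned side they ran from 15.6 in AL_R1 and 22.5 CPM in ChL_R1 to 1.75 to 2.21 in the other AL_R and 1.60 to 1.76 in the other ChL_R libraries. Their part in the results was not tested.

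Per base of transcript, the highest signals came from chains of type VI, XXV, XI and IV collagen and from the laminin chains Lamb1 and Lamc1. By the authors' normalized expression signal, in which a count is scaled to the length of its transcript and to the size of its library, Col6a1 came first with a mean of 0.209 over the 12 libraries (range 0.101 to 0.391). Col25a1 followed with 0.0489, then Lamb1 with 0.0446, Col11a2 with 0.0389, Lamc1 with 0.0387, Col4a2 with 0.0342 and Col6a2 with 0.0330. From Col25a1 downward the ranges of neighbours in this order overlapped, while the lowest library of Col6a1 lay above the highest of Col25a1 (0.0695). Lamb2, the third laminin in the order, had a signal of 0.0276. The laminins with the lowest signal were Lama1 with 0.00180 and Lama3 with 0.00339. Col10a1, the collagen of growth cartilage, was at the bottom with at most 3 counts in any library, and it was not tested in any comparison, like Col9a1 with at most 18 counts. With CPM scaled by length in place of the authors' signal, Col9a3 took the fifth place among the collagens ahead of Col6a2, and the 3 highest laminins were the same.

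**Figure D1:**
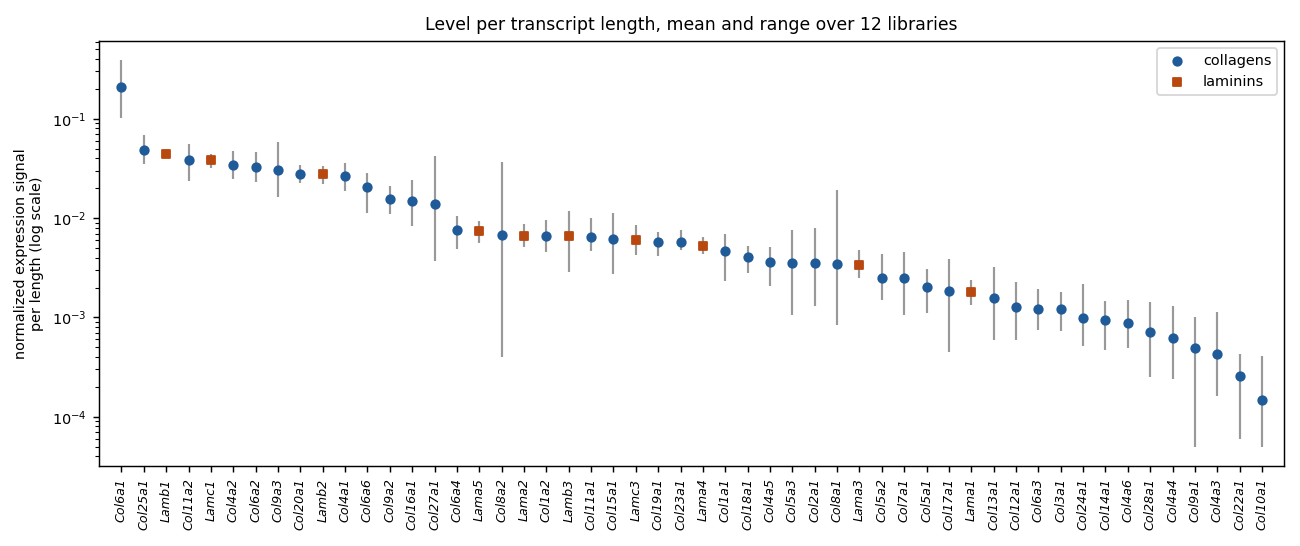
Normalized expression signal per transcript length (log scale, the authors' unit) of the genes reported, ordered by mean. Points are means and lines the range over the 12 libraries, drawn to the foot of the axis where a library was at 0. Col6a1 stands above all other members, and Lamb1 and Lamc1 are the highest laminins.

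Lesioned and unlesioned striatum were compared first after acute and then after chronic L-DOPA, on the counts of the 6 libraries concerned. Of the 53 members, 47 passed the filter on low counts in the acute comparison. There 13 were higher and 2 lower in the lesioned striatum at an adjusted p under 0.05, which is 27.7% and 4.26% of those tested, against 8.16% higher and 7.16% lower over all 20402 genes tested by 1 transcript each. The higher genes were 6 fibrillar collagens, 2 fibril-associated collagens (FACIT), 1 multiplexin, 1 type IV chain and laminin chains, and the lower ones were Col17a1 and Col6a6. The median log2 fold change was 0.27 over the 47 members and 0.02 over all genes tested, and 35 of the 47 values were above 0. The share of all genes with a value above 0 was not counted. After chronic L-DOPA, 49 members were tested, of which 9 were higher and 1 was lower (18.4% and 2.04%, against 8.46% and 5.2% of 19742 genes). Among the higher ones were Col27a1, Col7a1, Col15a1, Col1a1, Col16a1, Col4a1, Col11a1 and Col4a2, and the lower one was Col17a1. Without ChL_L2 the numbers were 11 and 1 of 50 members (7.32% and 5.05% of all genes): Col8a1, Col6a1 and Col9a3 were then also higher and Col11a1 was no longer called. With the replicate number as a block, 15 members were higher and 2 lower, but then 12.8% and 11.4% of all genes were called too. Bulk RNA cannot tell a larger number of cells of a type from more RNA in each cell.

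**Figure D2:**
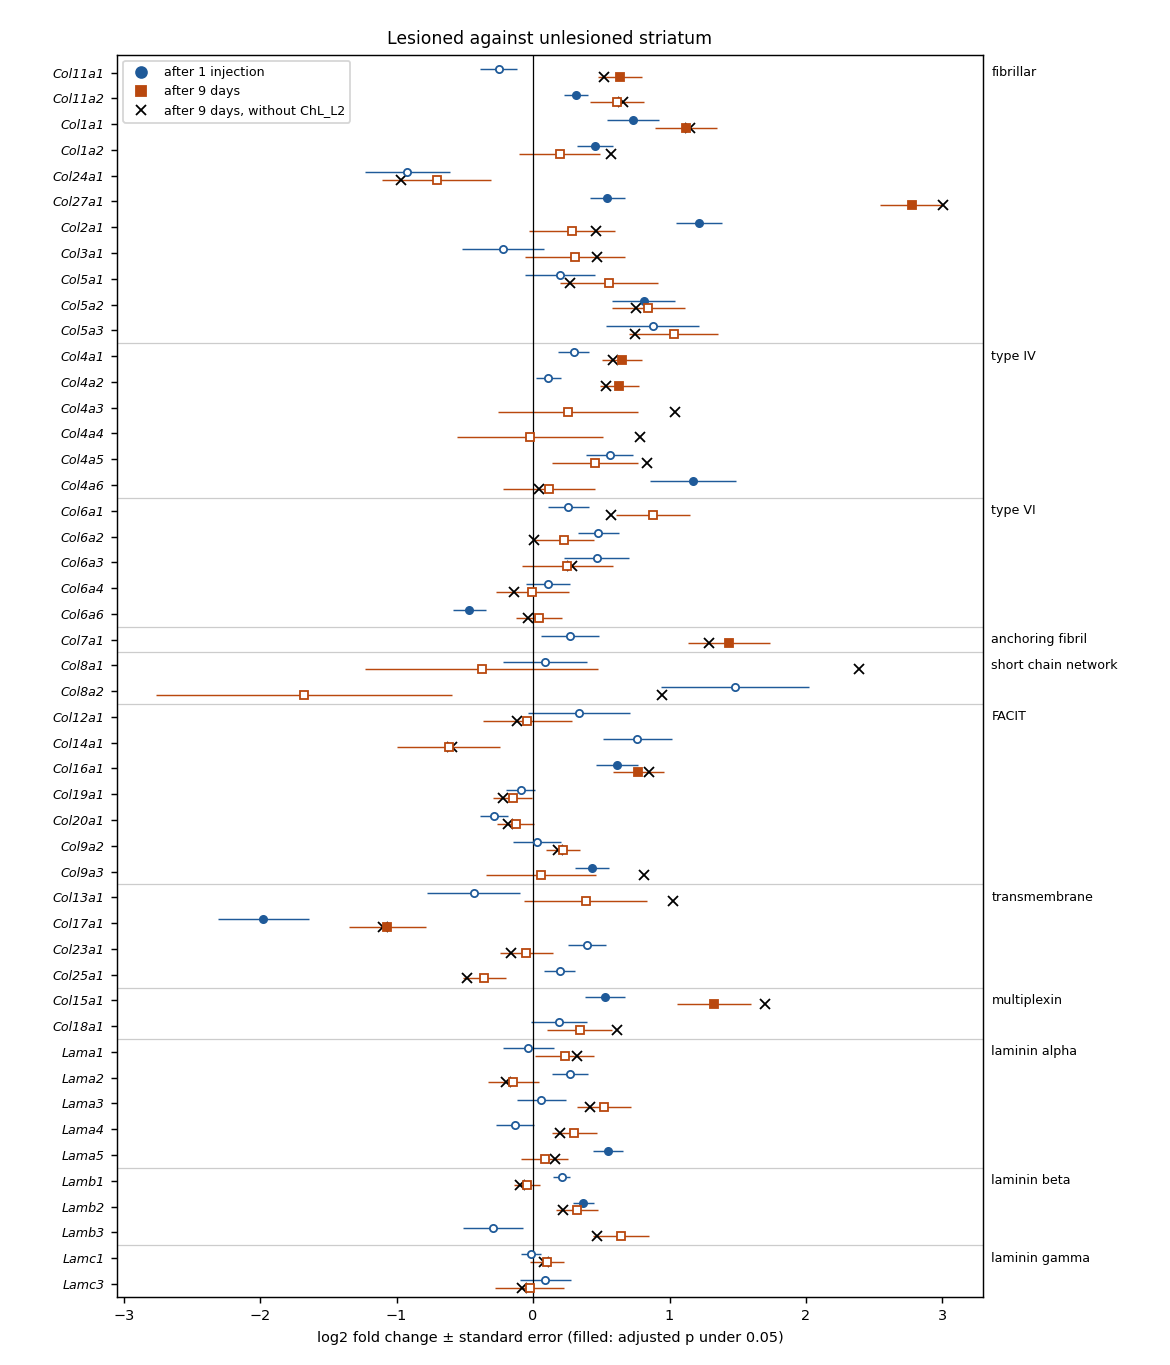
Log2 fold change (± standard error) of lesioned against unlesioned striatum for the members reported and tested, grouped by the kind of collagen or laminin chain. Circles stand for acute and squares for chronic L-DOPA, filled where the adjusted p was under 0.05, and crosses for chronic L-DOPA without library ChL_L2. Col27a1 has the largest rise after chronic L-DOPA, and the squares of Col8a1 and Col8a2 lie far from their crosses.

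Col27a1, a fibrillar collagen best known from cartilage (chromosome 4 from 62876446 to 62996025, mm9), gave the largest called difference among the collagens and laminins. After acute L-DOPA its level was 1.24, 1.41 and 1.40 CPM in the unlesioned and 1.84, 1.70 and 2.32 CPM in the lesioned libraries. After chronic L-DOPA it was 0.645, 1.14 and 0.834 CPM in the unlesioned and 5.18, 4.78 and 7.97 CPM in the lesioned libraries. The 3 chronic lesioned libraries were the highest of all 12, the acute lesioned ones came next, and the chronic unlesioned ones were the lowest, with no overlap between any 2 groups. The lesion effect was 0.54 (standard error 0.13, adjusted p = 0.0159) on the log2 scale after acute and 2.78 (standard error 0.23, adjusted p = 2.76e-05) with chronic L-DOPA, where the chronic difference was 6.85-fold. ChL_L2 held the highest of the chronic unlesioned values, and without it the chronic effect was 3.00 (adjusted p = 1.08e-05). The chronic effect exceeded the acute one by 2.23 (standard error 0.29, adjusted p = 3.89e-04) in the test of the difference itself, 2.46 (adjusted p = 1.88e-04) without ChL_L2. In the lesioned striatum Col27a1 was higher after chronic than after acute L-DOPA by 1.61 (standard error 0.19, adjusted p = 2.68e-04), whereas in the unlesioned striatum the difference was -0.62 (standard error 0.18, adjusted p = 0.0822), and -0.85 (adjusted p = 0.00466) without ChL_L2. The chronic effect stayed called with each library left out (2.52 to 3.00), whereas the acute call was lost without AL_L1 (adjusted p = 0.0678) and in the fit over all 12 libraries (adjusted p = 0.124). All 8 transcripts of the gene that passed the filter were called in the same direction after chronic L-DOPA, although they share reads, and no other gene in the annotation overlaps its exons.

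**Figure D3:**
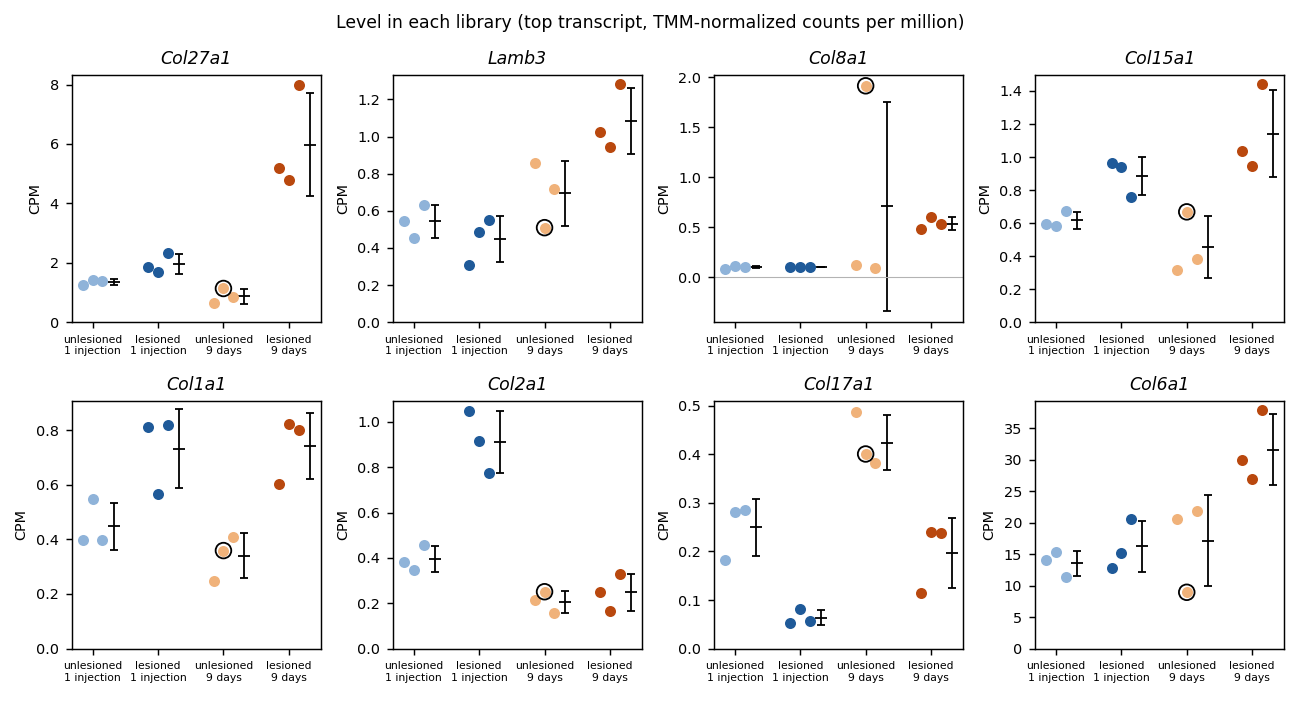
CPM of 8 members in each library by group, with the group mean ± SD (n = 3) beside the points. The ringed point is library ChL_L2. The chronic lesioned libraries are the highest for Col27a1, Lamb3 and Col6a1, and Col8a1 is raised in those libraries and in ChL_L2 alone.

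Among the other fibrillar collagens, the type I chains and Col2a1 had different patterns. Col1a1, a chain of the type I collagen of bone and skin, was at 0.399, 0.548 and 0.397 CPM in AL_L and 0.812, 0.567 and 0.821 CPM in AL_R. It was at 0.249, 0.359 and 0.410 CPM in ChL_L and 0.604, 0.824 and 0.802 CPM in ChL_R. Every lesioned library lay above every unlesioned one of either treatment. Its lesion effect was 0.73 (standard error 0.19, adjusted p = 0.0269) after acute and 1.12 (standard error 0.22, adjusted p = 0.00908) with chronic L-DOPA, where the chronic call held with each library left out and the acute one was lost in 4 of 6 such fits (adjusted p up to 0.101). Without ChL_L2 the chronic effect was 1.15 (adjusted p = 0.0150). Between chronic and acute L-DOPA it differed by 0.01 (standard error 0.19, adjusted p = 0.966) in the lesioned striatum. Its partner Col1a2 was at 0.821, 0.684 and 0.720 CPM in AL_L and 0.963, 0.949 and 1.14 CPM in AL_R, with no overlap, an effect of 0.45 (standard error 0.13, adjusted p = 0.0456) that was lost whichever of the 6 libraries was left out (adjusted p up to 0.147). After chronic L-DOPA it stood at 0.553, 1.11 and 0.612 CPM in ChL_L and 0.661, 1.19 and 0.730 CPM in ChL_R, where ChL_L2 lay among the lesioned libraries and the effect was 0.19 (standard error 0.30, adjusted p = 0.737), or 0.57 (adjusted p = 0.197) without ChL_L2. Col2a1, the main collagen of cartilage, was at 0.382, 0.346 and 0.457 CPM in AL_L, 1.05, 0.914 and 0.774 CPM in AL_R, 0.212, 0.251 and 0.155 CPM in ChL_L and 0.251, 0.167 and 0.328 CPM in ChL_R. It was high in the acute lesioned libraries alone, and the chronic groups overlapped. The acute lesion effect was 1.22 (standard error 0.17, adjusted p = 6.60e-04), the chronic one 0.29 (standard error 0.31, adjusted p = 0.626), and in the lesioned striatum Col2a1 was lower after chronic than acute L-DOPA, by a log2 value of -1.87 (standard error 0.24, adjusted p = 4.25e-04). Both calls held with each library left out. In the unlesioned striatum chronic against acute L-DOPA gave -0.95 (standard error 0.23, adjusted p = 0.0573), and -1.13 (adjusted p = 0.0150) without ChL_L2, while the difference between the lesion effects was -0.92 (standard error 0.35, adjusted p = 0.164).

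Type XI and type V chains, which join type I and type II fibrils and set their width, followed. Col11a1 was at 1.27, 1.09 and 1.09 CPM in AL_L, 0.903, 0.856 and 1.13 CPM in AL_R, 1.12, 0.835 and 1.09 CPM in ChL_L and 1.89, 1.42 and 1.44 CPM in ChL_R. The 3 chronic lesioned libraries were the highest of the 12 and the other groups overlapped. Its effect was -0.25 (standard error 0.13, adjusted p = 0.247) after acute and 0.64 (standard error 0.16, adjusted p = 0.0304) with chronic L-DOPA, 0.52 (adjusted p = 0.0740) without ChL_L2. The difference between these effects was 0.89 (standard error 0.22, adjusted p = 0.0312), but 0.77 (adjusted p = 0.0623) without ChL_L2, and the call of the difference was lost in 7 of the 12 fits that left out a library (adjusted p up to 0.0894). Against acute L-DOPA in the lesioned striatum Col11a1 rose by 0.71 (standard error 0.16, adjusted p = 0.0103), and this call held with each library left out. The chronic lesion call of Col11a1 did not, being lost in 5 of 6 such fits (adjusted p up to 0.109). Col11a2, the collagen with the third highest signal per length, was at 4.92, 6.12 and 6.16 CPM in AL_L, 6.98, 6.84 and 7.41 CPM in AL_R, 3.46, 4.34 and 4.44 CPM in ChL_L and 4.55, 5.67 and 8.53 CPM in ChL_R. Lesioned libraries were above unlesioned ones within each treatment, and the acute effect was 0.31 (standard error 0.09, adjusted p = 0.0383), lost whichever of the 6 libraries was left out (adjusted p up to 0.123), against 0.62 (standard error 0.20, adjusted p = 0.0732) with chronic L-DOPA. The chronic effect was 0.66 (adjusted p = 0.0815) without ChL_L2 and was called with the replicate block, at 0.59 (adjusted p = 0.00250). Col5a2 was at 0.251, 0.396 and 0.277 CPM in AL_L and 0.410, 0.625 and 0.597 CPM in AL_R, an effect of 0.81 (standard error 0.23, adjusted p = 0.0390) that was lost in 4 of the 6 fits with a library left out (adjusted p up to 0.140). Its chronic effect was 0.84 (standard error 0.27, adjusted p = 0.0697), 0.76 (adjusted p = 0.139) without ChL_L2, and was called with the replicate block at 0.84 (adjusted p = 0.0418). Col5a3 gave 0.88 (standard error 0.34, adjusted p = 0.114) after acute and 1.03 (standard error 0.33, adjusted p = 0.0682) with chronic L-DOPA, 0.75 (adjusted p = 0.117) without ChL_L2. With the block Col5a3 was called both times, at 0.91 (adjusted p = 0.0208) and 1.03 (adjusted p = 0.0346). The remaining fibrillar genes Col3a1, Col5a1 and Col24a1 were not called in any of the 5 comparisons without the block, with which Col24a1 was called lower after acute L-DOPA at -0.93 (adjusted p = 0.0249), and their highest levels were 0.255, 0.638 and 0.353 CPM.

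Beside these changes, the fibroblast gene list summed to 12.4 to 15.1 CPM in AL_L and 15.4 to 16.5 CPM in AL_R, and none of its 8 genes tested was called. In the chronic groups it summed to 9.32, 10.2 and 29.3 CPM in ChL_L and 9.72 to 13.0 CPM in ChL_R, again with none of 8 called between the sides. Its gene Slc47a1 was near 0 in every library, at most 0.0746 CPM. The list of pericyte and smooth muscle genes summed to 21.2 to 24.0 CPM in AL_L and 23.8 to 26.4 CPM in AL_R, and to 16.8 to 20.2 and 18.2 to 22.3 CPM in ChL_L and ChL_R, with 1 of 8 genes higher on the lesioned side in each treatment. Of 5 astrocyte genes, 2 were higher on the lesioned side after acute and 1 after chronic L-DOPA, and none was lower. Gfap, the filament protein of astrocytes, was at 17.6, 15.1 and 16.4 CPM in AL_L and 50.7, 28.9 and 36.2 CPM in AL_R. It was at 11.3, 19.6 and 11.3 CPM in ChL_L and 39.0, 68.5 and 56.9 CPM in ChL_R, so the lesioned libraries lay above the unlesioned ones. In the acute comparison 1 of 5 genes each of the ependymal, microglia and oligodendrocyte lists was higher as well, and 1 choroid plexus and 1 cortical neuron gene were lower. Of the 8 medium spiny neuron genes, 4 were higher and 3 lower after acute L-DOPA, and 2 higher and 1 lower after chronic L-DOPA. The enkephalin gene Penk was at 336, 335 and 387 CPM in AL_L and 633, 699 and 693 CPM in AL_R. The astrocyte list as a whole summed to 429.8 to 478 CPM in AL_L, 476 to 627 in AL_R, 432 to 518 in ChL_L and 536 to 556 in ChL_R. Their part in the collagen results was not tested.

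The main type IV chains were higher on the lesioned side after chronic L-DOPA and were not called after acute L-DOPA. Col4a1 and Col4a2 code for the type IV chains of nearly all basement membranes and lie head to head on chromosome 8 of mm9 with 2 bases between the transcripts used here. Col4a1 was at 3.41, 4.31 and 3.54 CPM in AL_L, 4.65, 5.21 and 3.96 CPM in AL_R, 2.73, 2.73 and 3.54 CPM in ChL_L and 4.22, 4.22 and 5.69 CPM in ChL_R. Col4a2 was at 4.24, 5.12 and 4.51 CPM in AL_L, 4.51, 5.33 and 5.14 CPM in AL_R, 3.71, 3.49 and 4.96 CPM in ChL_L and 5.83, 5.86 and 7.20 CPM in ChL_R. For both genes the acute groups overlapped and the chronic lesioned libraries all lay above the chronic unlesioned ones. The chronic effects were 0.65 (standard error 0.15, adjusted p = 0.0172) for Col4a1 and 0.63 (standard error 0.14, adjusted p = 0.0161) for Col4a2, with 0.58 (adjusted p = 0.0405) and 0.54 (adjusted p = 0.0365) without ChL_L2. Without ChL_L1 the adjusted p was 0.0703 for Col4a1 and 0.0667 for Col4a2, and without ChL_R3 0.0637 and 0.0692. The acute effects were 0.30 (standard error 0.11, adjusted p = 0.105) and 0.11 (standard error 0.09, adjusted p = 0.451), and the differences between the lesion effects 0.35 (standard error 0.20, adjusted p = 0.378) and 0.52 (standard error 0.18, adjusted p = 0.128), which with the replicate block became 0.35 (adjusted p = 0.0471) and 0.53 (adjusted p = 0.00350). The block also brought the acute effect of Col4a1 to 0.30 (adjusted p = 0.00894). Col4a2 was higher in ChL_R than in AL_R by 0.34 (standard error 0.11, adjusted p = 0.0428), a call lost in 5 of the 6 fits with a library left out (adjusted p up to 0.153). The endothelial gene list summed to 28.5 to 40.5 CPM in ChL_L and 34.8 to 40.5 CPM in ChL_R, with overlap and with none of 8 genes called. Of the other type IV chains, Col4a6 was called acutely at 1.17 (standard error 0.31, adjusted p = 0.0305) from levels of at most 0.224 CPM and lost in 5 of the 6 fits with a library left out (adjusted p up to 0.107), Col4a5 gave 0.56 (standard error 0.17, adjusted p = 0.0530), or 0.56 (adjusted p = 0.0369) with the replicate block, and Col4a3 and Col4a4 were too low for the acute test.

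Of the vascular laminin chains, Lama5 and Lamb2 were higher on the lesioned side after acute L-DOPA, and none was called between the sides after chronic L-DOPA. Without the block, the test of the difference between the lesion effects called none of the 11 laminins. Lamc1, the gamma chain of most laminins, was at 6.63, 6.48 and 6.43 CPM in AL_L, 6.89, 6.56 and 5.83 CPM in AL_R, 5.02, 5.80 and 7.15 CPM in ChL_L and 6.24, 6.22 and 6.88 CPM in ChL_R. All groups overlapped, and its lesion effects were -0.02 (standard error 0.07, adjusted p = 0.916) and 0.10 (standard error 0.12, adjusted p = 0.656). Lama4, the endothelial alpha chain, was at 0.775, 0.713 and 0.667 CPM in AL_L, 0.698, 0.683 and 0.587 CPM in AL_R, 0.747, 0.568 and 0.693 CPM in ChL_L and 0.855, 0.870 and 0.748 CPM in ChL_R. It was not called in any comparison, with effects of -0.13 (standard error 0.14, adjusted p = 0.588) and 0.30 (standard error 0.16, adjusted p = 0.288). Lama5, an alpha chain of mature vessels, was at 1.44, 1.55 and 1.47 CPM in AL_L and 2.15, 1.89 and 2.45 CPM in AL_R. The acute groups did not overlap and the effect was 0.55 (standard error 0.11, adjusted p = 0.00780), called with each library left out. In ChL_L it was at 1.54, 2.12 and 2.07 CPM and in ChL_R at 1.95, 1.67 and 2.47 CPM, overlapping, with an effect of 0.08 (standard error 0.17, adjusted p = 0.808). Lamb2, the beta chain of vessels and synapses, was at 2.92, 3.17 and 3.07 CPM in AL_L and 3.94, 3.87 and 3.96 CPM in AL_R, with no overlap. Its acute effect was 0.37 (standard error 0.08, adjusted p = 0.00884), called with each library left out but not in the fit over all 12 libraries (adjusted p = 0.0917). In ChL_L it was at 2.72, 2.54 and 3.67 CPM and in ChL_R at 3.13, 4.16 and 3.87 CPM, an effect of 0.32 (standard error 0.15, adjusted p = 0.225). Lamb1, the most abundant laminin per length, was at 5.79, 5.26 and 5.52 CPM in AL_L, 6.29, 6.42 and 6.40 CPM in AL_R, 5.33, 5.14 and 6.05 CPM in ChL_L and 5.51, 5.21 and 5.30 CPM in ChL_R. The acute lesioned libraries were the highest, and ChL_R lay below AL_R, with a log2 difference of -0.25 (standard error 0.08, adjusted p = 0.0375), a call lost whichever of the 6 libraries was left out (adjusted p up to 0.122). Its acute lesion effect was 0.21 (standard error 0.07, adjusted p = 0.0578), and it was called with the replicate block at 0.21 (adjusted p = 0.0259). Lama1, Lama2, Lama3 and Lamc3 were not called in any comparison without the block.

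Lamb3, a beta chain of the laminin that anchors epithelia, was called in 1 of the 5 comparisons. Lamb3 was at 0.547, 0.454 and 0.630 CPM in AL_L, 0.311, 0.486 and 0.550 CPM in AL_R, 0.857, 0.510 and 0.719 CPM in ChL_L and 1.03, 0.944 and 1.29 CPM in ChL_R. ChL_R lay above all other libraries, and against AL_R it rose by 1.30 (standard error 0.22, adjusted p = 0.00233), called with each library left out. The lesion effects of Lamb3 were -0.29 (standard error 0.22, adjusted p = 0.410) and 0.65 (standard error 0.20, adjusted p = 0.0683), the latter 0.47 (adjusted p = 0.147) without ChL_L2 and 0.66 (adjusted p = 0.0118) with the replicate block, and the difference between them 0.94 (standard error 0.32, adjusted p = 0.118), or 0.98 (adjusted p = 0.0263) with the block. The Lamb3 transcript used here is a clone that starts far upstream of the RefSeq start and spans Hsd11b1 and G0s2 on the opposite strand. Lama3 was at 0.562, 0.568 and 0.854 CPM in ChL_L and 0.820, 1.08 and 0.957 CPM in ChL_R, an effect of 0.52 (standard error 0.20, adjusted p = 0.128). With the block it was called at 0.53 (adjusted p = 0.0461), and without ChL_L2 the effect was 0.42 (adjusted p = 0.262).

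Type VI collagen, which forms beaded filaments near cell surfaces, held the collagen with the highest signal per length, and in the lesioned striatum 2 of its chains, Col6a1 and Col6a6, were higher in the chronic than in the acute libraries. Col6a1 was at 14.0, 15.3 and 11.4 CPM in AL_L, 12.8, 15.2 and 20.7 CPM in AL_R, 20.6, 8.94 and 21.9 CPM in ChL_L and 30.0, 26.9 and 37.9 CPM in ChL_R. The chronic lesioned libraries were the highest of the 12 and ChL_L2 was the lowest. ChL_R exceeded AL_R by 0.96 (standard error 0.17, adjusted p = 0.00259), called with each library left out. The chronic lesion effect was 0.88 (standard error 0.27, adjusted p = 0.0611) with all libraries, 0.57 (adjusted p = 0.0186) without ChL_L2 and 0.96 (adjusted p = 6.40e-04) with the replicate block, so the call depended on these choices. Without ChL_L2 the unlesioned striatum also rose with treatment time, by 0.64 (adjusted p = 0.00268) against 0.34 (standard error 0.25, adjusted p = 0.477) with it. Col6a2, its partner chain, was at 2.03, 2.51 and 2.38 CPM in AL_L, 2.72, 2.79 and 4.10 CPM in AL_R, 3.42, 1.98 and 3.41 CPM in ChL_L and 2.54, 3.46 and 4.26 CPM in ChL_R, with ChL_L2 the lowest of all. Its lesion effects were 0.48 (standard error 0.15, adjusted p = 0.0553), which became 0.47 (adjusted p = 0.00668) with the block, and 0.23 (standard error 0.22, adjusted p = 0.583). Without ChL_L2 the mean of Col6a2 was 3.41 CPM in ChL_L, against 3.42 CPM in ChL_R. The third chain, Col6a3, stayed at or under 0.453 CPM and was not called, nor was Col6a4. Col6a6 was at 1.87, 2.03 and 2.17 CPM in AL_L, 1.22, 1.57 and 1.61 CPM in AL_R, 2.79, 2.09 and 2.25 CPM in ChL_L and 2.67, 1.85 and 2.83 CPM in ChL_R. The acute lesioned libraries were the lowest of the 12, with an acute effect of -0.47 (standard error 0.12, adjusted p = 0.0266) that was lost in 4 of 6 fits with a library left out (adjusted p up to 0.0922). ChL_R lay above AL_R by 0.74 (standard error 0.17, adjusted p = 0.0112), and without ChL_R1 the adjusted p was 0.0514. The Col6a6 values come from a predicted transcript of 8 exons that starts 111361 bases after the RefSeq promoter window.

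The anchoring fibril collagen Col7a1 was higher on the lesioned side after chronic L-DOPA, and Col8a1 separated the chronic from the acute lesioned libraries. Col7a1, the anchoring fibril collagen of skin, was at 0.365, 0.634 and 0.592 CPM in AL_L, 0.554, 0.648 and 0.699 CPM in AL_R, 0.553, 0.267 and 0.242 CPM in ChL_L and 0.912, 0.740 and 1.17 CPM in ChL_R. The chronic lesioned libraries were the highest of the 12 and the acute groups overlapped. The chronic effect was 1.44 (standard error 0.30, adjusted p = 0.0118), 1.29 (adjusted p = 0.0245) without ChL_L2, with an adjusted p of 0.0569 without ChL_L3 and 0.0644 without ChL_R3. Col8a1, a short collagen of the corneal membrane and of vessel walls, was at 0.0855, 0.108 and 0.105 CPM in AL_L and 0.106, 0.104 and 0.103 CPM in AL_R. It was at 0.120, 1.91 and 0.0874 CPM in ChL_L and 0.479, 0.602 and 0.529 CPM in ChL_R. In 8 libraries it lay between 0.0855 and 0.120 CPM, the 3 chronic lesioned libraries were all above 0.120 CPM, and ChL_L2 was the highest of all. ChL_R exceeded AL_R by 2.35 (standard error 0.24, adjusted p = 1.03e-04), a 5.11-fold difference that uses neither unlesioned group and stayed called with each library left out, although in the fit over all 12 libraries, whose spread includes ChL_L2, the adjusted p was 0.0766. Beside this, the choroid plexus list summed to 3.97 to 5.82 CPM in AL_R and 9.03 to 12.0 CPM in ChL_R, with 2 of 7 genes tested higher and none lower. Its part in the Col8a1 values was not tested. The chronic lesion effect of Col8a1 was -0.38 (standard error 0.86, adjusted p = 0.833) with ChL_L2 and 2.39 (adjusted p = 3.42e-04) without it, and the difference between the lesion effects turned from -0.46 (standard error 1.35, adjusted p = 0.894) to 2.31 (adjusted p = 0.00303). Col8a2 was at 0.160, 0.418 and 0.0825 CPM in AL_L, 0.250, 0.509 and 1.09 CPM in AL_R, 0.240, 3.11 and 0.141 CPM in ChL_L and 0.194, 0.833 and 0.0365 CPM in ChL_R. It varied within every group, was the highest in ChL_L2, and was not called between any groups, with an acute effect of 1.48 (standard error 0.54, adjusted p = 0.0942) and a chronic effect of -1.68 (standard error 1.08, adjusted p = 0.374) that turned to 0.95 (adjusted p = 0.529) without ChL_L2. With the replicate block it was called at 1.42 (adjusted p = 0.0324) after acute and -1.59 (adjusted p = 0.00114) with chronic L-DOPA, where the block sets ChL_L2 against a library of the same number at 0.833 CPM.

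Col17a1, a membrane collagen of the junctions that hold epithelia to their base, was low everywhere and was the only member called lower on the lesioned side after both treatments. Its reads numbered 32, 39 and 38 in AL_L and 7, 7 and 6 in AL_R, or 0.182, 0.281 and 0.285 against 0.0531, 0.0810 and 0.0559 CPM. After chronic L-DOPA it was at 0.488, 0.401 and 0.383 CPM in ChL_L and 0.114, 0.241 and 0.237 CPM in ChL_R. Within each treatment the lesioned libraries all lay below the unlesioned ones. The lesion effect was -1.98 (standard error 0.33, adjusted p = 0.00255) after acute L-DOPA, a 3.94-fold lower level called with each library left out. After chronic L-DOPA it was -1.07 (standard error 0.28, adjusted p = 0.0336), a call lost in 4 of the 6 fits with a library left out (adjusted p up to 0.110) but kept without ChL_L2, at -1.10 (adjusted p = 0.0468). ChL_R exceeded AL_R by 1.68 (standard error 0.40, adjusted p = 0.0120), with an adjusted p of 0.0531 without AL_R1. Col25a1, the neuronal membrane collagen, was at 5.58, 5.49 and 6.20 CPM in AL_L, 5.38, 6.54 and 7.85 CPM in AL_R, 9.66, 7.40 and 9.96 CPM in ChL_L and 8.02, 7.73 and 5.35 CPM in ChL_R. The chronic unlesioned libraries lay above the acute unlesioned ones by 0.65 (standard error 0.11, adjusted p = 0.0177), or 0.76 (adjusted p = 2.54e-04) without ChL_L2, but the call was lost in 4 of the 6 fits with a library left out (adjusted p up to 0.106). Its lesion effects were 0.20 (standard error 0.11, adjusted p = 0.283) and -0.36 (standard error 0.16, adjusted p = 0.183). Col13a1 and Col23a1 were not called in any comparison with all libraries.

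Of the collagens that attach to other structures, Col15a1 and Col16a1 were higher on the lesioned side after both treatments. Col15a1, a multiplexin of vessel and muscle basement membranes, was at 0.593, 0.584 and 0.675 CPM in AL_L, 0.963, 0.937 and 0.755 CPM in AL_R, 0.313, 0.668 and 0.383 CPM in ChL_L and 1.04, 0.944 and 1.44 CPM in ChL_R. ChL_L2 was the highest of its group and still below every lesioned library. The effect was 0.53 (standard error 0.14, adjusted p = 0.0328) after acute and 1.33 (standard error 0.27, adjusted p = 0.00988) with chronic L-DOPA. Without ChL_L2 the chronic effect was 1.70 (adjusted p = 8.28e-04). The acute call was lost in 5 of the 6 fits with a library left out (adjusted p up to 0.105), and the chronic adjusted p was 0.0536 without ChL_L3 and 0.0568 without ChL_R3. The difference between the effects was 0.81 (standard error 0.32, adjusted p = 0.191), or 1.18 (adjusted p = 0.0265) without ChL_L2. Col18a1, its relative and the source of endostatin, was not called, with a chronic effect of 0.34 (standard error 0.24, adjusted p = 0.414). Col16a1, a FACIT collagen, was at 1.48, 1.82 and 2.22 CPM in AL_L, 2.41, 2.60 and 3.38 CPM in AL_R, 1.40, 1.48 and 1.14 CPM in ChL_L and 1.64, 2.81 and 2.35 CPM in ChL_R. Lesioned libraries lay above unlesioned ones within each treatment, with effects of 0.62 (standard error 0.16, adjusted p = 0.0239) and 0.77 (standard error 0.19, adjusted p = 0.0241), each lost in 4 of the 6 fits with a library left out (adjusted p up to 0.0891 and 0.104). Without ChL_L2 the chronic effect was 0.85 (adjusted p = 0.0244). Col9a3, a chain of the type IX collagen of cartilage, was at 1.55, 1.98 and 1.88 CPM in AL_L, 2.15, 2.37 and 2.77 CPM in AL_R, 1.09, 3.98 and 1.49 CPM in ChL_L and 1.60, 2.92 and 2.27 CPM in ChL_R. ChL_L2 was its highest library, the acute effect was 0.44 (standard error 0.12, adjusted p = 0.0393) and was lost in 4 of the 6 fits with a library left out (adjusted p up to 0.140), and the chronic one was 0.06 (standard error 0.40, adjusted p = 0.948) with ChL_L2 and 0.81 (adjusted p = 0.0453) without. Its exons overlap those of Tcfl5 on the opposite strand by 234 bases, and the study does not state whether counting used the strand. Col19a1, a FACIT collagen that some brain interneurons make, was at 1.55, 1.31 and 1.54 CPM in AL_R and 1.13, 0.925 and 1.15 CPM in ChL_R, a log2 difference of -0.46 (standard error 0.14, adjusted p = 0.0335) that was lost in 4 of the 6 fits with a library left out (adjusted p up to 0.115). In AL_L and ChL_L it was at 1.64, 1.58 and 1.48 and 1.18, 1.06 and 1.30 CPM, a difference of -0.41 (standard error 0.11, adjusted p = 0.0790). Col14a1 was also lower in ChL_R, with 0.214 ± 0.0288 CPM in AL_R and 0.0880 ± 0.0291 CPM in ChL_R (SD, n = 3), a difference of -1.28 (standard error 0.33, adjusted p = 0.0174) that was lost in 3 of the 6 fits with a library left out (adjusted p up to 0.0740). Col9a2, Col12a1 and Col20a1 were not called in any comparison. Col22a1 was too low for all comparisons but ChL_L against AL_L, and the unclassed Col28a1 was tested there and for the difference between lesion effects, with no call where tested. The Col20a1 values come from a clone of 1 exon.

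Between treatments, 9 of 48 members tested were higher and 4 lower in ChL_R than in AL_R (18.8% and 8.33%, against 12.5% and 13.1% of 19790 genes). The number lower was 1 with DESeq2, 1 without ChL_R1, 2 without AL_R1 and 6 without ChL_R2, fits whose shares of all genes are not given here. Among the higher ones were Col27a1, Col8a1, Lamb3, Col6a1, Col6a6, Col11a1, Col17a1 and Col4a2, and the lower ones Col2a1, Col14a1, Col19a1 and Lamb1. Of these 13 calls, those of Col27a1, Col8a1, Lamb3, Col6a1, Col11a1 and Col2a1 held with each library left out. In the same comparison 5 of 5 oligodendrocyte, 4 of 5 blood, 3 of 5 microglia, 3 of 8 pericyte and smooth muscle, 2 of 5 astrocyte, 2 of 8 fibroblast and 1 of 8 endothelial genes were lower. Higher were 2 of 7 choroid plexus genes and 1 of 8 genes each of the fibroblast, endothelial and pericyte lists. Of the 8 medium spiny neuron genes, 1 was higher and 2 were lower. The oligodendrocyte list summed to 2004 to 3339 CPM in AL_R and 1101 to 1988 CPM in ChL_R. The microglia list summed to 49.0 to 58.4 CPM in AL_R and 33.9 to 42.6 CPM in ChL_R, and their part in the result was not tested. In the unlesioned striatum 2 of 49 members, Col25a1 among them, were higher in ChL_L than in AL_L and none was lower (1.07% and 1.99% of 20290 genes). In that comparison 14 members had an unadjusted p under 0.05 and DESeq2 called 4, without a matching share of all genes to set beside them. There 2 of 5 astrocyte, 1 of 5 microglia, 1 of 8 pericyte and smooth muscle and 1 of 8 medium spiny neuron genes were lower, and 1 of 8 endothelial and 1 of 6 choroid plexus genes higher, and their part was not tested. Without ChL_L2, 4 were higher and 5 lower of 49 (5.44% and 6.63% of all genes), with Col25a1, Col6a1 and Col6a2 among the higher ones and Col15a1, Col27a1, Col11a2, Col2a1 and Col13a1 lower. The lesion effects after chronic and acute L-DOPA differed for Col27a1 and Col11a1 of 50 members tested, both toward a larger chronic effect, and for none in the other direction (3.53% and 1.56% of 20682 genes). An unadjusted p under 0.05 was found for 13 members, and the share of all genes at that p was not counted. Without ChL_L2 the difference was called for Col27a1, Col15a1 and Col8a1 (3.14% and 1.44% of all genes). With the replicate block it was called for 7 members toward a larger chronic effect, Col27a1, Col11a1, Col4a1, Col4a2, Lamb3, Col7a1 and Col6a6, and for Col8a2 in the other direction (7.3% and 6.13% of all genes). The 5 comparisons share libraries, so their results are not independent of each other.

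**Figure D4:**
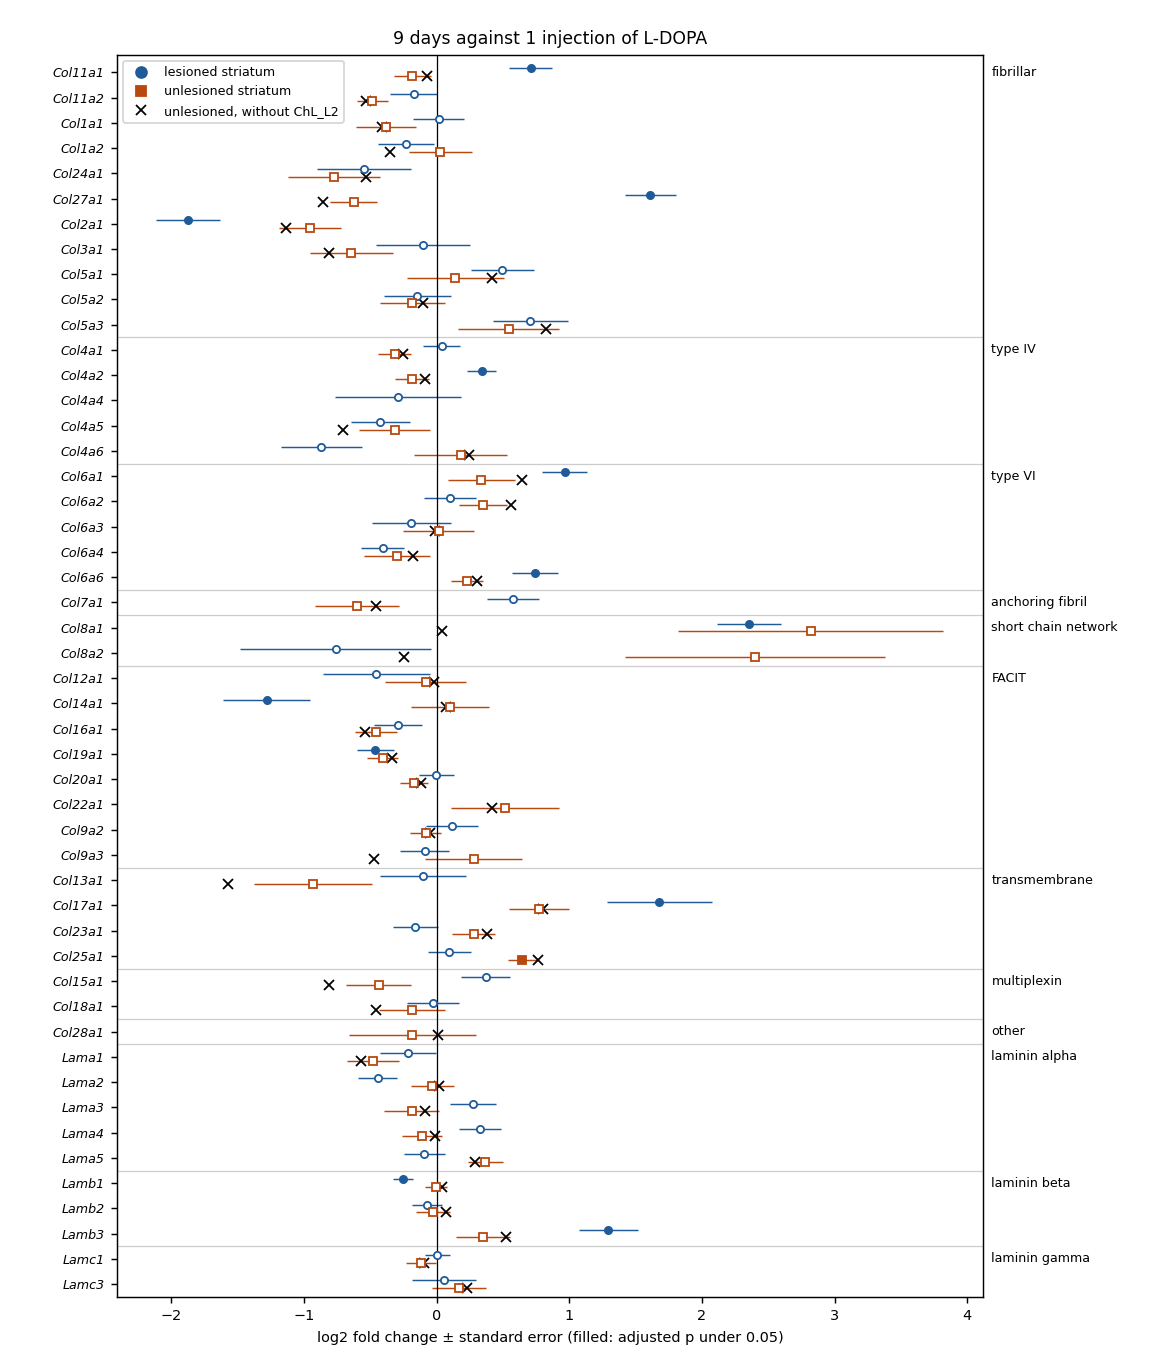
Log2 fold change (± standard error) of chronic against acute L-DOPA for the members reported and tested. Circles stand for the lesioned and squares for the unlesioned striatum, filled where the adjusted p was under 0.05, and crosses for the unlesioned striatum without library ChL_L2. Col8a1, Col17a1 and Col27a1 show large rises in the lesioned striatum, and the Col8a1 and Col8a2 squares rest on ChL_L2.

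The sequences before the starts of 5 collagens called higher in the chronic lesioned libraries in 1 or more comparisons are shown to set side by side what these genes hold there. RefSeq windows (GRCm38.p6) were available for 39 of the 53 members, and 250 bases before the start were read from each. The same bases were found at 1 place in the mm9 genome, directly before the deposited transcript, at chr4:62876196-62876445 (plus strand) for Col27a1, chr4:47220634-47220883 (plus strand) for Col15a1, chr3:113733208-113733457 (plus strand) for Col11a1 and chr16:57754851-57755100 (minus strand) for Col8a1. The window of Col6a1 was found at chr10:76188790-76189039 (minus strand), and its deposited transcript starts inside it. Capitals mark motifs on the strand shown or, as the reverse complement, on the other strand. The motifs are the GC box, spelled GGGCGG, the CCAAT box, which is spelled as its name, and the motif of AP-1, spelled TGANTCA, where N is any base.
Col27a1: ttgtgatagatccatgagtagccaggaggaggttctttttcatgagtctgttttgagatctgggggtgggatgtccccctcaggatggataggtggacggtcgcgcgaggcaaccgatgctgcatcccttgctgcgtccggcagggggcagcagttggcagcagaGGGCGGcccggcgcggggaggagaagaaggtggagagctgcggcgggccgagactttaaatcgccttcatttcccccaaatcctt
Col15a1: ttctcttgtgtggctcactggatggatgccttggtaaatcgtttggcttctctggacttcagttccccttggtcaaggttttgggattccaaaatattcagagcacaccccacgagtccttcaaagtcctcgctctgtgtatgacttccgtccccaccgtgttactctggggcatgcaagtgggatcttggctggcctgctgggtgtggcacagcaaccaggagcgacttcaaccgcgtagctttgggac
Col11a1: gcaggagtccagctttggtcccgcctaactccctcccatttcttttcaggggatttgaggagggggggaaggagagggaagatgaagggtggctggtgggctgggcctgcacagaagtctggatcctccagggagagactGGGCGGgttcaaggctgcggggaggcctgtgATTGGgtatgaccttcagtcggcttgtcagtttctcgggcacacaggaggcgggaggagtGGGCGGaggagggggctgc
Col8a1: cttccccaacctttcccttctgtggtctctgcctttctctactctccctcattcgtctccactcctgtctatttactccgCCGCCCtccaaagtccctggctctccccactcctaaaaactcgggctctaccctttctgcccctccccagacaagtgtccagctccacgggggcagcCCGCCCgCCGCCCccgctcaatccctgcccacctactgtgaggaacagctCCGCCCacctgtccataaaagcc
Col6a1: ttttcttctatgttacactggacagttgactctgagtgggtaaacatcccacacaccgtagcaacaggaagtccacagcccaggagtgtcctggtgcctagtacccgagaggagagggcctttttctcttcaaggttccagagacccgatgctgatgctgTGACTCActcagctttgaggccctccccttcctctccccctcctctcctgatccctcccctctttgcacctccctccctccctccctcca

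In these letters, the Col27a1 window held 1 GC box at 85 bases before the start, and the Col8a1 window 4, all on the opposite strand, the nearest at 23 bases. The Col11a1 window held GC boxes at 110 and 19 bases and a CCAAT on the opposite strand at 79 bases before the start, and Col15a1 held none of these. A GC box was found in 22 of the 39 member windows (56.4%) against 32.9% of all 27025 windows, and CCAAT in 13 (33.3% against 34.5%). The AP-1 letters were found in the window of Col6a1 alone among the members, 90 bases before the RefSeq start, which is inside the deposited transcript and after its start, and in 6.87% of all windows. The cyclic AMP response letters TGACGTCA, searched in the same way, were in no member window and in 1.62% of all. The letters of one motif did not overlap those of another in the windows shown. These are matches of letters only.

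Genes that act with collagens and laminins were counted from 3 lists, to be read against the shares of all genes given above: 8.16% higher and 7.16% lower in the acute and 8.46% and 5.2% in the chronic lesion comparison. Of 8 basement membrane partners, Sparc and Fbln1 were higher on the lesioned side after acute L-DOPA and Sparc after chronic L-DOPA, and none was lower. With the replicate block Agrn, a heparan sulfate proteoglycan of basement membranes, was also called after chronic L-DOPA, at 0.33 (adjusted p = 0.00321). Sparc, a collagen-binding protein of the matrix, was at 45.6, 47.0 and 44.9 CPM in AL_L, 82.7, 58.9 and 72.6 CPM in AL_R, 61.7, 79.8 and 63.4 CPM in ChL_L and 104, 113 and 96.3 CPM in ChL_R. Its level was higher on the lesioned side and after chronic treatment, with log2 fold changes of 0.64 (standard error 0.10, adjusted p = 0.00145) and 0.61 (standard error 0.11, adjusted p = 0.00518) between the sides and 0.55 (standard error 0.12, adjusted p = 0.00734) and 0.58 (standard error 0.10, adjusted p = 0.0183) between treatments. Of 12 receptors tested, the collagen receptor Ddr1 was higher on the lesioned side after acute L-DOPA at 0.36 (standard error 0.07, adjusted p = 0.00581), and none was called after chronic L-DOPA with all libraries and no block, where Ddr1 gave 0.33 (standard error 0.11, adjusted p = 0.0735) and 0.43 (adjusted p = 0.0257) without ChL_L2. With the replicate block Ddr1 was called after chronic L-DOPA at 0.34 (adjusted p = 0.00226), the integrin chain Itgb1 at 0.22 (adjusted p = 0.0394) and Itga10 at -0.35 (adjusted p = 0.0173). After acute L-DOPA the block added the integrin chains Itgb1, Itga3, Itgb4 and Itga6, all higher on the lesioned side, from 0.19 (adjusted p = 0.0164) for Itgb1 to 0.33 (adjusted p = 0.0110) for Itga6. In ChL_R against AL_R, the laminin receptor chains Itgb4 and Itga6 and the collagen receptor Ddr2 were lower, with -1.09 (standard error 0.26, adjusted p = 0.0126) for Itgb4. Of the genes for collagen synthesis and crosslinking, 3 of 20 tested were higher on the lesioned side after acute L-DOPA and 1 of 19 after chronic L-DOPA, and none was lower without the replicate block. With the block P4ha1 was lower after acute L-DOPA at -0.27 (adjusted p = 0.00288) and Crtap after chronic L-DOPA at -0.48 (adjusted p = 0.0490). The block also added Plod1 at 0.25 (adjusted p = 0.0162) and Serpinh1 at 0.38 (adjusted p = 0.00667) as higher after acute L-DOPA, and Leprel2 at 0.39 (adjusted p = 0.0288) after chronic L-DOPA. P4hb, a subunit of the enzyme that hydroxylates collagen prolines, was called both times, at 0.75 (standard error 0.06, adjusted p = 8.87e-06) and 0.56 (standard error 0.10, adjusted p = 0.00513). P4ha3, a catalytic subunit of the same enzyme, was called at 0.97 (standard error 0.13, adjusted p = 6.58e-04) after acute L-DOPA, and gave 0.64 (standard error 0.30, adjusted p = 0.206) with chronic L-DOPA. The chronic difference was called without ChL_L2, at 0.99 (adjusted p = 0.0448), and with the replicate block, at 0.65 (adjusted p = 0.0205). In ChL_R against AL_R, where 13.1% of all genes were lower and 12.5% higher, 5 of 20 were lower and none higher, among them P4ha3, P4ha1 and the collagen chaperone Serpinh1, whose value was -0.94 (standard error 0.28, adjusted p = 0.0352). In ChL_L against AL_L, where 1.99% of all genes were lower, 3 of 20 were lower, P4ha1 among them, and none was higher. Without ChL_L2, 6 of 20 were lower there, against 6.63% of all genes, P4ha3, P4ha1 and Serpinh1 among them, and none was higher.

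Library ChL_L2 was higher than the other chronic unlesioned libraries in some members and lower in others. Of 34 members whose mean reached 0.5 CPM, 7 were at least 1.5-fold higher in it than the mean of ChL_L1 and ChL_L3 and 5 at least 1.5-fold lower. The higher ones were Col8a2 (16.3-fold), Col9a3 (3.10-fold), Col4a5, Col15a1, Col1a2, Col18a1 and Col27a1, and among the lower ones were Col6a1, Col5a3, Col6a2 and Lamb3. Col8a1, whose mean is lower, was 18.5-fold higher in it. Col8a1, Col8a2, Col9a3 and Col4a3 had their highest level of all 12 libraries there. The part of choroid plexus RNA in these differences was not tested.

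**Figure D5:**
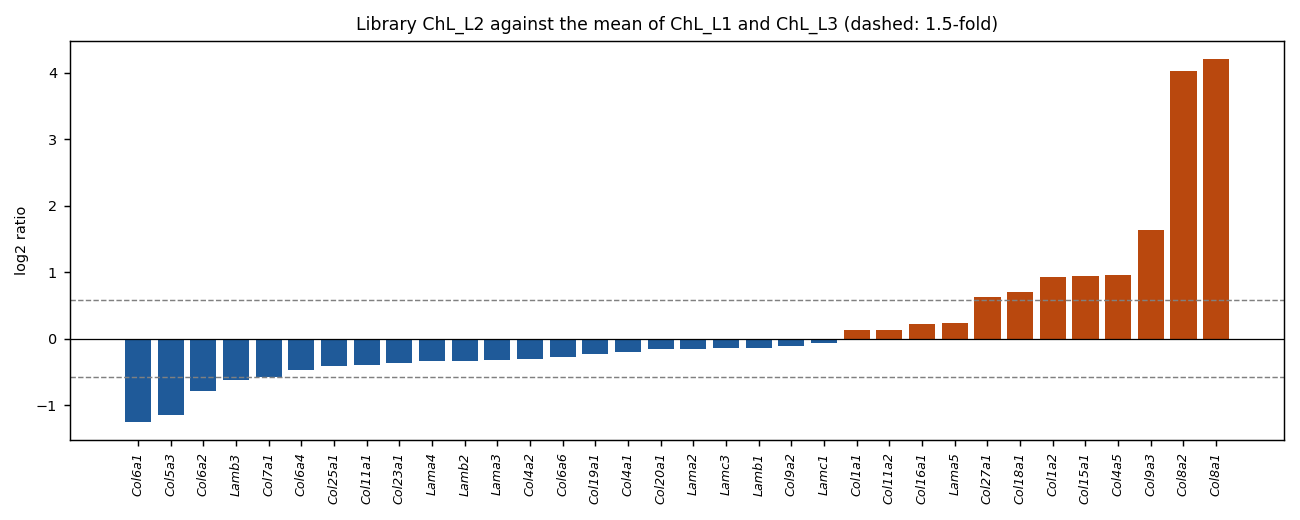
Log2 ratio of library ChL_L2 to the mean of ChL_L1 and ChL_L3, for Col8a1 and the members reported here whose mean reached 0.5 CPM. Dashed lines mark 1.5-fold. Col8a1 and Col8a2 stand far above the rest, and Col6a1 is the lowest.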

How the data were processed

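Striatal RNA of 12 libraries was sequenced by the authors and mapped to mm9, per the submitters' processing notes, which also name DESeq. The deposited values used here are read counts per transcript and a normalized expression signal that the authors derived from the count, the transcript length and the library size. Whether counting used the strand, and how reads with several matches were placed, is not given in the sources used here. A further 3 deposited tables give p-values and fold changes that the authors computed, and these were not used, with 36 per-sample columns whose names match no sample. Also, 296 transcripts without a gene name, with 0.0485% of the counts, were left out.

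Counts were filtered with filterByExpr, scaled by TMM and tested by the quasi-likelihood test of edgeR 4.0.16 (limma 3.58.1, R 4.3.3) on the libraries of each comparison. The difference between the lesion effects was tested as an interaction over 12 libraries. P-values were adjusted (Benjamini-Hochberg) over all transcripts that passed the filter, and a call is an adjusted p under 0.05. Each gene is reported by its transcript with the highest mean CPM, and the percentages of all genes use the same choice of transcript. DESeq2 1.42.0 was an alternative, with other scaling, filters, features, samples and each library left out in turn. The fits were tested on simulated data with known changes, where the calls of the acute lesion comparison held more unchanged features than the nominal share, so adjusted p-values just under the threshold are uncertain there. Tables were read with data.table (version 1.17.8) and pandas 2.3.3, and figures drawn with matplotlib 3.10.9 under Python 3.11.15 (numpy 2.4.6).

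Same-numbered lesioned and unlesioned libraries deviated together from their group means (r = 0.400, 0.313 and 0.232 over 20682 genes after acute, and 0.435, 0.496 and 0.145 after chronic L-DOPA), so the replicate number was used as a block in an alternative. Pairs of unequal number gave -0.276 to 0.0144 after acute and -0.444 to 0.147 after chronic L-DOPA. The value of 0.147 was that of ChL_L3 with ChL_R1, so the chronic replicate 3 was not singled out by its number. If the libraries are not from separate animals, the p-values measure only the spread between these samples. An exact permutation test of 3 against 3 libraries cannot go below 0.1.

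Values in every library are given for called members whose libraries do not overlap between the groups compared and whose mean reaches 0.5 CPM in 1 of them (at most 12 per comparison), for the 5 collagens and 3 laminins with the highest level per length, and for the vascular chains Col4a1, Col4a2, Lama4, Lama5, Lamb2 and Lamc1. Others shown by library were chosen after their values were seen, for a call, for their place in ChL_L2 or as a partner chain. The members, the gene lists and the tests were chosen with earlier results of these data known. The counts cover every member, of which 1 is not reported here by name or value.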

Additional observations from a re-analysis of the deposited data

Results flagged for a closer look

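In 2 members the lesion effect differed between chronic and acute L-DOPA by a test of the difference itself. These are 2 of 50 members tested, toward a larger chronic effect, against 3.53% of all genes in that direction, so their number is near that of genes in general. For Col27a1 the chronic effect exceeded the acute one by 2.23 on the log2 scale (adjusted p = 3.89e-04). Split by side, the same contrast gave treatment differences on opposite sides of 0, 1.61 in the lesioned and -0.62 in the unlesioned striatum. The latter was not called with all libraries, and the libraries did not overlap in either. For Col11a1 the difference between the lesion effects was 0.89 (adjusted p = 0.0312), or 0.77 (adjusted p = 0.0623) without ChL_L2.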

How the results depend on the processing

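Precision is limited by 3 libraries a group, and 3 counts, the most that a count of 0 allows, correspond to 0.0171 to 0.0347 CPM. Of 42 calls of members, 14 held under every alternative run, and of 566 alternatives to these calls 438 kept the call and 128 kept the direction without it. The counts below come mostly from fits whose share of all genes is not given here. They do not show whether a shift concerned the members or all genes. For AL_R against AL_L, 15 members were called, 22 with the replicate block, 6 in 1 fit over all 12 libraries, and 7 to 13 with a library left out (7 without AL_L3 or AL_R2, 8 without AL_L1, 9 without AL_R3). For ChL_R against ChL_L, 10 were called, 17 with the replicate block, 16 with the block and without both replicates 2 (an alternative chosen after seeing the data), and 3 to 12 with a library left out (3 without ChL_R3, 5 without ChL_L1). For ChL_R against AL_R, 13 were called, and every alternative stayed within 1.5 times that total, the paired fit (12) included, although the 4 lower calls were 1 with DESeq2 and 1 to 6 with a library left out. For ChL_L against AL_L, 2 were called, 4 with DESeq2, 4 with no filter on low counts, 4 with the replicate block, 1 with counts summed over a gene's transcripts, and 0 to 9 with a library left out (0 without AL_L1, AL_L2 or ChL_L3, 1 without AL_L3 or ChL_L1, 9 without ChL_L2). The interaction was called for 2 members, 8 with the replicate block within treatments and 1 to 4 with a library left out (4 without ChL_R2, 1 without AL_L1, AL_L2, AL_L3, AL_R1, AL_R2 or ChL_R1). The direction turned for Col8a2, whose chronic lesion effect of -1.68 was 0.95 without ChL_L2, and for Col8a1. The chronic lesion effect of Col8a1 was -0.38, 0.17 with the replicate block, from -0.93 to 2.39 with a library left out (2.39 without ChL_L2) and 2.32 with the block and without both replicates 2, and its interaction was -0.46, 0.16 with the block, from -1.01 to 2.31 with a library left out (2.31 without ChL_L2). Other members that were not called also changed sign. In ChL_R and AL_R, and in ChL_L and AL_L, equal replicate numbers did not go with shared deviations in every pair. The causes of these shifts were not tested.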
